A study of Arabidopsis thaliana with 8 samples.

Results

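The comparison described here is that of heat recovery with mock treatment in leaves of the pif4 pif5 double mutant of Arabidopsis thaliana. It rests on 4 of the 8 RNA sequencing libraries of the study, 2 from heat-recovered and 2 from mock-treated pif4 pif5 plants, which were chosen by their titles. The heat group carried the alleles pif4-2 and pif5-3 in the Col-0 background, grew on soil at 22 °C for 3 weeks, was held at 42 °C for 5 h and was sampled after 3 days of recovery. The mock group had the same genotype, soil, age label and growth temperature, and the labels give no time of sampling for it. The third and the fourth rosette leaves were taken, at a stage at which their edges had begun to yellow according to the study's design text. Col-0 wild-type plants with the same 2 treatments, also 2 libraries each, served to test where the response of the mutant differed. The labels number the libraries as biological replicates and do not say how many plants went into each.

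PIF4 and PIF5 are basic helix-loop-helix transcription factors that bind short DNA elements such as the G-box. Phytochrome receptors activated by light cause their removal, and warmth raises the activity of PIF4, so that both factors connect light and temperature with growth. In ageing leaves they are known to promote chlorophyll loss and senescence, partly through abscisic acid and ethylene signalling. Heat shock genes, which encode chaperones, are known to be induced rapidly by heat and to be switched off again during recovery.

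The table gave FPKM, in which the fragments of a gene are divided by the length of its transcript and by the mapped fragments of the library. The depth inferred from the steps of its values was 16852240 to 29535916 reads per library. Between 16016 and 16348 genes reached 1 FPKM in a library. PIF4 stood at 25.6 and 23.8 FPKM in the heat libraries of the mutant, against 33.5 and 33.6 FPKM in its mock libraries, and at 97.2 and 101 FPKM and 131 and 131 FPKM in the wild type after heat and mock. PIF5 stood at 4.74 and 3.98 FPKM after heat and 5.60 and 4.70 FPKM after mock in the mutant, and at 54.3 and 54.9 FPKM and 63.2 and 66.4 FPKM in the wild type. Every mutant library was thus below every wild-type library for both genes, and transcript remained detectable from both loci in the mutant. Within the mutant, PIF4 fell by 0.43 ± 0.05 after heat recovery on the log2 scale (± SE here and below, adjusted p = 0.00025), and PIF5 had a change of -0.20 ± 0.087 with overlapping groups (adjusted p = 0.13). Of the genes that mark leaf mesophyll, RBCS1A had 8460.4 and 8829.7 FPKM after heat and 6252 and 6575 FPKM after mock in the mutant, while the root markers CASP1 and COBL9 summed to at most 0.0375 FPKM in any of the 4 libraries. The shoot meristem markers STM, WUS, CLV3, KNAT1 and CUC2 summed to 0.116 and 0.0294 FPKM after heat, against 0.0535 and 0.163 FPKM after mock, with WUS and CUC2 at 0. The flower markers AP1 and AG reached at most 0.254 FPKM in sum.

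The 16831 genes that reached 1 FPKM in 2 or more of the 8 libraries were tested with limma on log2(FPKM + 1), with p-values adjusted by the Benjamini-Hochberg method, and 3401 (20.2%) changed in the mutant at an adjusted p below 0.05. Of these, 1057 (6.28% of the genes tested) were higher after heat recovery and 2344 (13.9%) were lower. The counts given for gene lists are to be read beside these shares. Most changes were small: 48 genes (0.285%) rose and 20 (0.119%) fell at least 2-fold. The median log2 change over all genes tested was -0.0648. Rises were called in 17 of 20 light-harvesting genes, 15 of 19 Calvin cycle genes and 14 of 16 rapidly induced stress genes. Falls were called in 5 of 11 jasmonate genes of the MYC2 branch and in 3 ferritin genes. No call was made for 20 of 31 heat shock protein genes and 13 of 17 senescence-associated genes, as for 13430 of all 16831 genes. A change in the amount of a transcript in whole leaves can come from fewer cells of a type or from less RNA per cell, and these cannot be told apart. The count of changed genes fell by more than 1.5 times without mock replicate 2, without heat replicate 2 and without heat replicate 1. Each of these fits left 1 library in a group, which lowers precision whichever library is removed. The fall is therefore no measure of these libraries alone. Without mock replicate 1, 1456 genes were lower.

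**Figure D1:**
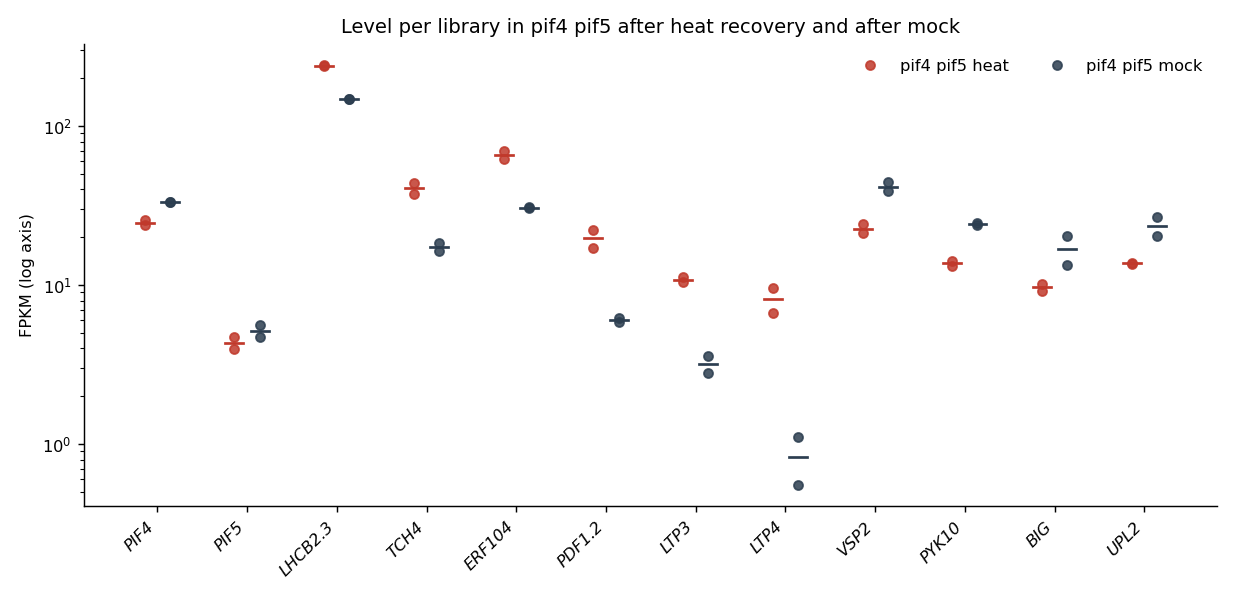
FPKM of 12 genes in the 2 heat-recovered libraries (left, red) and the 2 mock libraries (right, dark) of pif4 pif5 on a log axis, with each point a library and each bar a group mean. The groups do not overlap for any gene shown except PIF5, a separation that the rules for naming genes favour. Both heat libraries lie above both mock libraries for LHCB2.3, TCH4, ERF104, PDF1.2, LTP3 and LTP4.

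The falling genes were unevenly spread over transcript length. In the eighth of genes with the shortest annotated transcripts (up to 976 bp), 4.4% were called lower and 10.7% higher after heat recovery. In the eighth with the longest transcripts (2953 bp or more), 44.7% were called lower and 1.0% higher. The median log2 change was 0.037 in the shortest eighth and -0.26 in the longest, and it declined at each step from the second eighth on. In the wild type the same medians were -0.0066 and 0.067. The displacement was present in all 4 mutant libraries: in the longest eighth, the median deviation from the mean of all 8 libraries was -0.145 and -0.135 after heat, against 0.085 and 0.174 after mock. Mock replicate 2 was the most displaced of the 4. Centring the changes within 40 bins of transcript length, an alternative chosen after the data had been seen, left 1203 genes higher (7.15% of those tested) and 685 lower (4.07%), of which 912 and 618 were called the same way in the deposited values. Some values centred in this way are given below. Median-of-ratios scaling moved the median of all genes from -0.0648 to 0.0033 and gave 1729 higher and 1173 lower genes, so that 59.6% of the calls were higher, against 31.1% in the deposited values, 48.0% with quantile scaling and 63.7% with length centring.

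**Figure D2:**
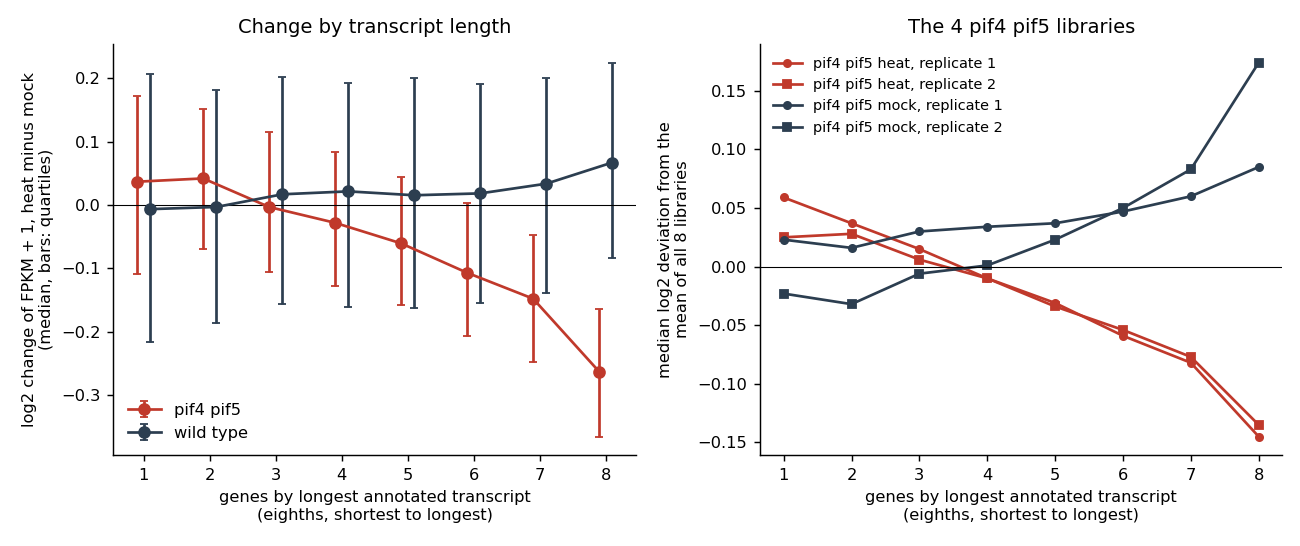
Left, median log2 change of FPKM + 1 (heat minus mock) with quartiles for genes in eighths of annotated transcript length, in pif4 pif5 (red) and wild type (dark). Right, the median deviation of each pif4 pif5 library from the mean of all 8 libraries. In the mutant the median declines to -0.26 in the longest eighth, where both heat libraries lie below 0 and both mock libraries above it.

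Genes of the light-harvesting antenna, the chlorophyll proteins that collect light for the photosystems, rose in 17 of 20 measured members after heat recovery, and none fell. Their median log2 change was 0.26 (0.054 to 0.34 over the alternatives). The call was made in 11 members without heat replicate 1 or without mock replicate 2 and in 9 without heat replicate 2 or with quantile scaling, while 17 remained called with length centring. LHCB2.3, a subunit of the major antenna of photosystem II, had 237 and 243 FPKM after heat recovery, against 148 and 147 FPKM after mock, a log2 change of 0.70 ± 0.045 (adjusted p = 4.2e-06). LHCB1.1, another subunit of that antenna, had 1931 and 1958 FPKM after heat recovery and 1264 and 1255 FPKM after mock, a change of 0.63 ± 0.04 (adjusted p = 4.2e-06). In both genes the replicates of a group lay close together and well apart from the other group. Here and in the lists below, the named genes are the called members with the smallest p, a choice that favours such separation. LHCB4.3, which encodes a minor antenna protein, was the least abundant of the named antenna genes and had the highest log2 change of the list, with 9.77 and 11.0 FPKM after heat recovery and 5.13 and 4.50 FPKM after mock (0.97 ± 0.10, adjusted p = 8.1e-05). LHCB3, LHCB6 and LHCB2.1 rose by 0.39, 0.37 and 0.41. LHCB1 and LHCB2 genes have near-identical copies whose reads the counting may have shared among them. The genes of the list summed to 93148 and 93659.9 FPKM after heat recovery, against 81216 and 77838 FPKM after mock. The mesophyll markers RBCS1A, RBCS2B, LHCB2.1, LHCB3 and RCA also rose, but all 5 belong to the antenna list or to that of the Calvin cycle and are no separate measure, and the part that cell composition plays was not tested.

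Because PIF factors bind the G-box (CACGTG) and its variant CACATG, the 300 bases before the annotated gene start were read from the RefSeq TAIR10.1 genome for 16620 of the tested genes and searched on both strands, letting different motifs overlap. A G-box stood in 8.37% of the 1040 promoters of higher genes, in 8.27% of the 2321 promoters of lower genes and in 8.08% of all 16620. CACATG stood in 15.4%, 13.1% and 12.6% of the same sets. The evening element AAAATATCT, a clock element, was found in 4.23%, 3.92% and 3.15%. Of the 20 measured antenna genes, 5 held a G-box and 4 held CACATG. Of those with a G-box, LHCB2.3, LHCB6, LHCB7 and LHCA4 were called higher and LHCB4.1 was not called. Most of the 17 antenna genes called higher held no G-box. The promoters of LHCB2.3 (chr3:10255606-10255905, plus strand) and LHCA4 (chr3:17495034-17495333, minus strand), 2 risen antenna genes with a G-box whose windows overlap no other annotated gene, are shown from 5′ to 3′ with the G-box in capitals, to let the surroundings of the element be seen beside the changes of their genes.
LHCB2.3: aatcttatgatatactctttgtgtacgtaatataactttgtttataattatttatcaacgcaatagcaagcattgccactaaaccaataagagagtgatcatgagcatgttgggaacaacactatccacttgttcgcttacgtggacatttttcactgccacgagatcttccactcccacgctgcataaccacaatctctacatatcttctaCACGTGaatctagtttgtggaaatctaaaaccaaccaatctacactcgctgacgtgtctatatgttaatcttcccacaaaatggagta
LHCA4: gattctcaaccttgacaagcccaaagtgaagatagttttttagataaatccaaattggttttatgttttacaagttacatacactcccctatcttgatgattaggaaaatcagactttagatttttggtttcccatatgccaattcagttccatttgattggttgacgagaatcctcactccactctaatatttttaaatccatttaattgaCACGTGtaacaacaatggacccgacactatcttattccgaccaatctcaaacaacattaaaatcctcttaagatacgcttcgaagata
In both windows the G-box lies 88 to 83 bases before the gene start. LHCA4, an antenna protein of photosystem I, had 7391 and 7168 FPKM after heat recovery and 6482 and 6099 FPKM after mock, a log2 change of 0.21 ± 0.05 (adjusted p = 0.012). A match is a description of the sequence and says nothing about binding in these leaves.

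Genes for the photosystems and the electron transport chain between them rose in 18 of 32 members and none fell, with a median log2 change of 0.17 (0.022 to 0.25 over the alternatives). The number higher was 8 without heat replicate 1, heat replicate 2 or mock replicate 2 and without the filter on low values, 6 without the intensity trend and 9 with quantile scaling, which also called 2 members lower. PSAD2, a subunit of photosystem I, had 1440.5 and 1437 FPKM after heat recovery and 1166 and 1165 FPKM after mock (0.30 ± 0.043, adjusted p = 0.00078). PSBS, the photosystem II protein needed to dissipate excess light as heat, had 656 and 638 FPKM after heat recovery and 529.8 and 534 FPKM after mock (0.28 ± 0.041, adjusted p = 0.00091). PETC, the Rieske iron-sulphur protein of the cytochrome complex, had 1358 and 1352 FPKM after heat recovery and 1138 and 1112 FPKM after mock (0.27 ± 0.039, adjusted p = 0.00091). All 3 were higher in both heat libraries than in both mock libraries, by amounts that were small beside those of LHCB2.3 and LHCB1.1. The small photosystem II subunits PSBY, PSBW and PSBX rose by 0.28, 0.26 and 0.24.

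Rubisco and Calvin cycle genes, which fix carbon dioxide, rose in 15 of 19 members and none fell, with a median of 0.19 (0.10 to 0.27 over the alternatives), and 16 were called with length centring. The count was 8 without heat replicate 2 or without the intensity trend and 9 with quantile scaling. RBCS2B, a Rubisco small subunit, had 1506 and 1566 FPKM after heat recovery and 951 and 989 FPKM after mock (0.66 ± 0.04, adjusted p = 2.9e-06). FBA1, a plastid fructose-bisphosphate aldolase, had 389.6 and 391 FPKM after heat recovery and 253 and 255 FPKM after mock (0.62 ± 0.042, adjusted p = 5.5e-06). RCA, Rubisco activase, a heat-sensitive enzyme that keeps Rubisco active, had 2874 and 3071 FPKM after heat recovery and 2068 and 2295 FPKM after mock (0.45 ± 0.064, adjusted p = 0.00091). The heat libraries lay above the mock libraries for each of the 3 genes. The abundant RBCS1A and RBCS3B rose by 0.43 and 0.35, and the small-subunit genes share sequence, so the division of their reads is uncertain.

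Of 22 enzymes of chlorophyll synthesis, 2 rose and 2 fell, where 6.28% of all genes tested were higher and 13.9% lower. Their median log2 change was 0.0028 (-0.027 to 0.081 over the alternatives). CRD1, a subunit of the cyclase step, had 552 and 569 FPKM after heat recovery and 495 and 467 FPKM after mock (0.22 ± 0.047, adjusted p = 0.0073), and CHLM, the methyltransferase before it, rose by 0.12. GSA1, an early enzyme of tetrapyrrole synthesis, fell to 65.8 and 63.4 FPKM after heat recovery, against 76.1 and 80.3 FPKM after mock (-0.27 ± 0.048, adjusted p = 0.0028), and HEME2 fell by 0.18 ± 0.048. The number higher was 8 with median-of-ratios scaling, 6 with length centring, 1 without heat replicate 1 or either wild-type heat library and 0 without heat replicate 2 or mock replicate 2. The number lower was 1 without heat replicate 1, heat replicate 2 or mock replicate 1. GLK1, a transcription factor that activates photosynthesis genes, fell to 150.4 and 153 FPKM after heat recovery, against 171 and 175 FPKM after mock (-0.19 ± 0.039, adjusted p = 0.0064), and was the sole called gene of 7 greening regulators. The call was lost with median-of-ratios scaling and without the intensity trend, heat replicate 1 or mock replicate 2, and 1 member was higher without mock replicate 2. None of the 13 measured PIF relatives and light-response genes passed the test in limma, in limma-voom on recovered reads or in the other alternatives, and 2 had an unadjusted p below 0.05, both lower. UNE10, a PIF relative, had 4.41 and 5.18 FPKM after heat recovery and 5.91 and 6.38 FPKM after mock (adjusted p = 0.099), and PIF1 had 12.6 and 14.3 FPKM and 15.6 and 14.96 FPKM (adjusted p = 0.14).

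Rapidly induced stress genes, a list of transcription factors and calcium-response genes that respond within minutes to touch, cold or wounding, rose in 14 of 16 members, and none fell. The median log2 change was 0.64 (0.49 to 0.77 over the alternatives), and the number higher lay between 11 and 14 in each alternative, with 1 member lower without mock replicate 1. ERF104, an ethylene response factor, had 70.0 and 62.2 FPKM after heat recovery and 30.6 and 30.8 FPKM after mock (1.08 ± 0.082, adjusted p = 1.4e-05). WRKY40, a WRKY factor of defence and abscisic acid responses, had 41.1 and 34.0 FPKM after heat recovery and 18.7 and 18.4 FPKM after mock (0.98 ± 0.10, adjusted p = 0.0001). ZAT10, a zinc finger repressor, had 92.4 and 82.8 FPKM after heat recovery and 47.8 and 47.8 FPKM after mock (0.86 ± 0.10, adjusted p = 0.00029). In each of these, heat replicate 1 was the highest library and the 2 mock libraries lay almost together. ERF6 rose by 1.01, the calmodulin-like TCH2 by 0.71 and the zinc finger gene SZF1 by 0.63. The members of this list summed to 614 and 533 FPKM after heat recovery, against 354 and 349 FPKM after mock. Of the clock genes, whose levels follow the hour of the day, 1 of 19 was higher and 4 were lower. Of all genes tested, 6.28% were higher and 13.9% lower. The median transcript of the clock list is 2522 bp, and 22.6% of all genes of 2346 to 2952 bp were lower. GI, a clock component, fell to 54.4 and 52.9 FPKM after heat recovery, against 68.1 and 79.8 FPKM after mock (-0.45 ± 0.083, adjusted p = 0.0033), and the light-sensing F-box gene FKF1 fell to 59.1 and 59.9 FPKM, against 68.0 and 72.2 FPKM (-0.23 ± 0.047, adjusted p = 0.006). PRR5 rose by 0.26, ELF4 fell by 0.25 ± 0.053 and TOC1 fell by 0.17 ± 0.046. The number of clock genes called lower was 1 with length centring, where GI and FKF1 were no longer called, and 2 without heat replicate 2 or mock replicate 2, and the rise of PRR5 was not called without heat replicate 2, mock replicate 1 or the intensity trend. The part of harvest time in these results was not tested.

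Outside the lists, 15 genes were named for the size of their rise, with varied roles. TI1, a defensin-like protein annotated as a trypsin inhibitor, had 14.98 and 15.67 FPKM after heat recovery and 5.52 and 5.58 FPKM after mock (1.32 ± 0.069, adjusted p = 7.8e-07). RING1, a plasma membrane E3 ubiquitin ligase, had 298 and 329.7 FPKM after heat recovery and 141 and 147 FPKM after mock (1.11 ± 0.061, adjusted p = 1.1e-06). CML41, a calmodulin-like protein, had 148 and 159 FPKM after heat recovery and 76.6 and 75.7 FPKM after mock (0.9998 ± 0.063, adjusted p = 4.2e-06). The rule for naming genes outside the lists asked for groups that do not overlap. DREB26 and DREB2A, AP2-type transcription factors of dehydration and heat responses, rose by 1.23 and 0.84, the calcium- and phospholipid-binding BAP1 by 1.12 and WRKY60, a partner of WRKY40, by 1.09. IGMT2, an indole glucosinolate methyltransferase, rose by 1.08, the arabinogalactan protein AGP1 by 1.03, the Nudix hydrolase NUDT21 by 0.92, and the mitochondrial dicarboxylate carrier DIC2 by 0.87. BT5, PP2-A5 and UBC17 rose by 1.17, 0.97 and 0.84. SAE1B, a subunit of the SUMO-activating enzyme with a near-identical copy, had the highest value of the named genes outside the lists, at 2.205 ± 0.50, but its 11.3 and 1.41 FPKM after heat recovery rested on heat replicate 1 and stood against 0.195 and 0.164 FPKM after mock. Its change was 1.03 without heat replicate 1 and 3.38 without heat replicate 2, and its call was lost without mock replicate 2, the filter on low values or the intensity trend.

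Cell wall genes that respond to growth and touch rose in 6 of 19 members and fell in 2, with a median of 0.15 (0.066 to 0.26 over the alternatives). EXPA1, an expansin that loosens the wall, had 231 and 241 FPKM after heat recovery and 129 and 128 FPKM after mock (0.87 ± 0.04, adjusted p = 5.3e-07). EXT4, an extensin, had 25.6 and 21.9 FPKM after heat recovery and 6.45 and 6.95 FPKM after mock (1.68 ± 0.13, adjusted p = 1.4e-05). TCH4, a touch-induced xyloglucan endotransglucosylase, had 44.1 and 37.7 FPKM after heat recovery and 18.5 and 16.4 FPKM after mock (1.18 ± 0.094, adjusted p = 2e-05). In all 3 both heat libraries were higher than both mock libraries. PHI-1, a growth-related gene of the EXORDIUM family, rose by 1.68 and EXPA10 by 0.92, and XTH24, a relative of TCH4, fell to 73.4 and 63.3 FPKM after heat recovery, against 93.9 and 89.7 FPKM after mock (-0.42 ± 0.072, adjusted p = 0.0023). The number lower was 1 with median-of-ratios scaling and without each of the 4 mutant libraries in turn. The median was 0.25 without mock replicate 1 and 0.066 without mock replicate 2.

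**Figure D3:**
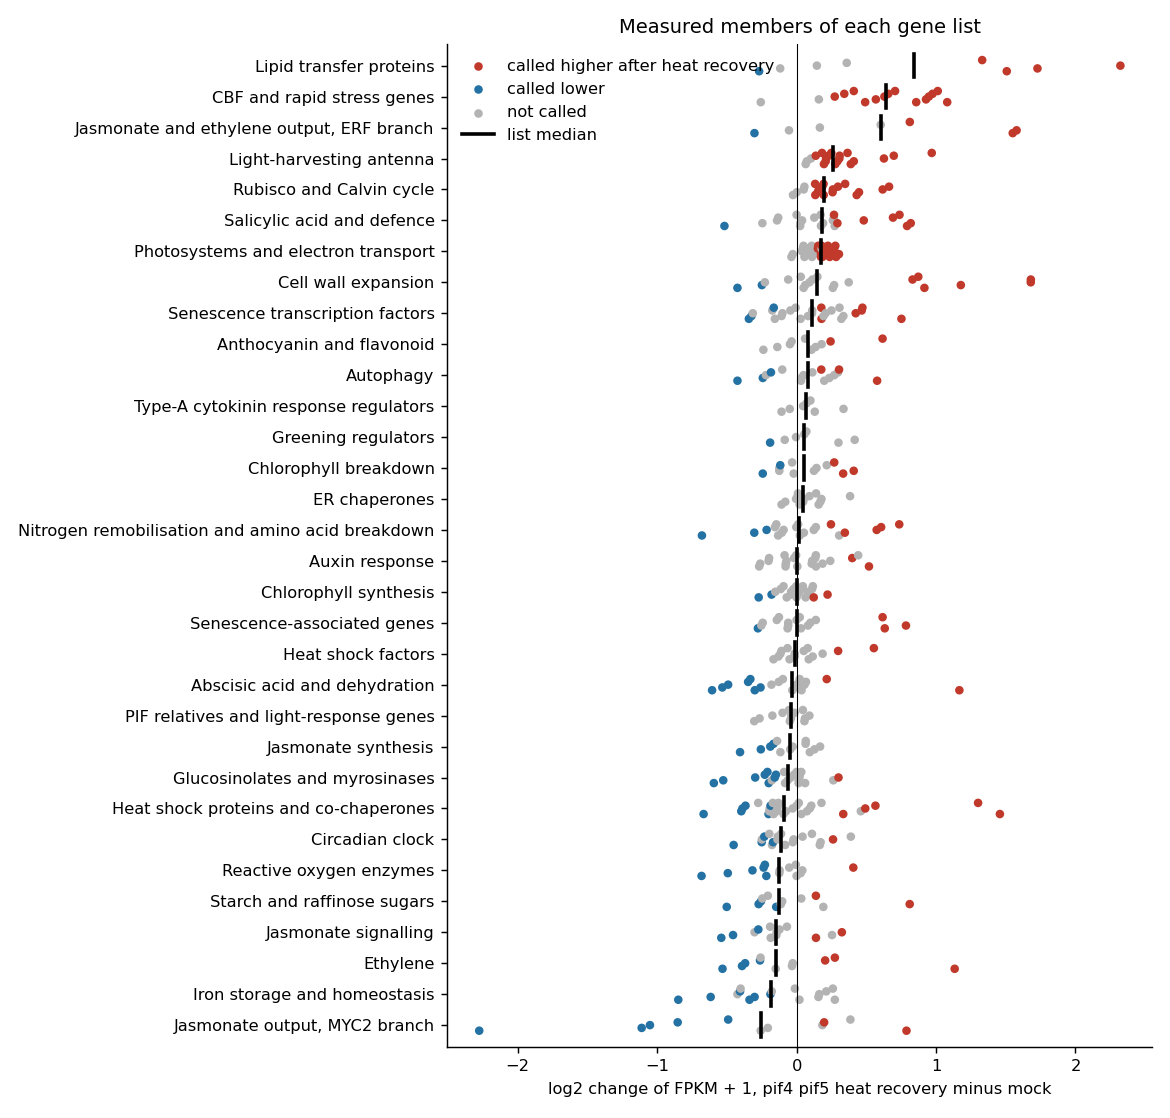
Log2 change of FPKM + 1 (heat recovery minus mock, pif4 pif5) of every measured member of the 32 gene lists, ordered by list median. Red points were called higher, blue points lower and grey points were not called at an adjusted p below 0.05, and black bars are medians. Antenna, Calvin cycle and rapid stress lists have red points and no blue ones, and the MYC2 branch reaches the lowest value at -2.28.

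Genes of jasmonate output were listed by branch, and both branches held members called higher and members called lower. Of 11 measured genes of the MYC2 branch, which serves responses to wounding and insects, 5 fell and 2 rose, with a median of -0.26 (-0.67 to -0.16 over the alternatives), and the 5 that fell numbered 5 or 6 in each alternative. VSP1, a vegetative storage protein with phosphatase activity, fell to 3.26 and 3.20 FPKM after heat recovery, against 17.57 and 21.6 FPKM after mock, the strongest fall of all genes tested (-2.28 ± 0.11, adjusted p = 6.3e-07). VSP2, its close relative, fell to 21.2 and 24.1 FPKM after heat recovery, against 39.1 and 44.3 FPKM after mock (-0.85 ± 0.076, adjusted p = 4.5e-05). BGLU18, a beta-glucosidase of inducible endoplasmic reticulum bodies, fell to 77.2 and 80.8 FPKM after heat recovery, against 167 and 163 FPKM after mock (-1.05 ± 0.044, adjusted p = 3.2e-07). Neither heat library reached the level of either mock library in these genes. The myrosinase-binding protein MBP1 fell by 1.11 ± 0.085 and the cystine lyase CORI3 by 0.49 ± 0.045. NATA1, an acetyltransferase for ornithine, rose to 15.1 and 13.97 FPKM after heat recovery, against 7.91 and 8.08 FPKM after mock (0.79 ± 0.094, adjusted p = 0.00028), and the number called higher was 1 without heat replicate 1, heat replicate 2 or mock replicate 2.

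Genes of the ERF branch, which joins jasmonate with ethylene in defence against fungi, rose in 3 of 7 measured members and fell in 1, with a median of 0.60 (0.17 to 1.02 over the alternatives). The median was 0.38 without mock replicate 1, 0.17 without the filter on low values and 1.02 with limma-voom on recovered reads. PDF1.2, an antifungal plant defensin, had 22.3 and 17.1 FPKM after heat recovery and 6.20 and 5.84 FPKM after mock (1.55 ± 0.11, adjusted p = 7.3e-06). Its copies PDF1.2C and PDF1.2B rose by 1.58 and 0.81, with reads that may have been shared among the 3. These 3 copies were the only members called higher. ORA59, the transcription factor known to activate PDF1.2, fell to 11.8 and 11.5 FPKM after heat recovery, against 14.6 and 14.6 FPKM after mock (-0.30 ± 0.092, adjusted p = 0.038), and the call was lost in 10 of 18 alternatives, among them those without each of the 4 mutant libraries and with both other scalings. Enzymes of jasmonate synthesis fell in 4 of 13 members, among them the lipoxygenase LOX3, at 10.4 and 10.7 FPKM after heat recovery and 13.6 and 15.003 FPKM after mock (-0.41 ± 0.076, adjusted p = 0.0039). AOS, ACX1 and LOX2 fell by 0.17 ± 0.043, 0.19 ± 0.054 and 0.26 ± 0.081. The 4 falling synthesis genes have transcripts of 2032 to 3186 bp, and with length centring 0 of them were called and 1 other member was higher. The number lower was 1 without heat replicate 1 or heat replicate 2 and 2 without mock replicate 2. Among 13 measured signalling genes, JAZ1 and JAZ9, repressors of jasmonate responses, rose by 0.32 and 0.14, while JAZ7 fell by 0.54 ± 0.13, JAZ10 by 0.46 ± 0.13 and the transcription factor MYC3 by 0.27 ± 0.051. The number of these lower was 1 without heat replicate 2 and with length centring, and the number higher was 0 without heat replicate 2 or mock replicate 1 and 1 without heat replicate 1, mock replicate 2 or either wild-type heat library.

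Lipid transfer proteins, small secreted proteins that bind lipids, rose in 4 of 8 members and fell in 1, at a median of 0.85 (0.36 to 1.33 over the alternatives), which was highest among the lists except without the filter on low values (0.36). LTP4 had 9.65 and 6.65 FPKM after heat recovery and 1.101 and 0.550 FPKM after mock, the highest fitted change of all genes tested (2.32 ± 0.23, adjusted p = 9.2e-05). LTP3, its near-identical relative, had 10.5 and 11.2 FPKM after heat recovery and 3.57 and 2.79 FPKM after mock (1.51 ± 0.14, adjusted p = 5.7e-05). EARLI1, a cold- and pathogen-responsive member, had 18.0 and 16.2 FPKM after heat recovery and 4.08 and 4.86 FPKM after mock (1.73 ± 0.085, adjusted p = 6.3e-07). LTP1, at 131 and 118 FPKM after heat recovery and 156 and 144 FPKM after mock, was the member that fell (-0.27 ± 0.064, adjusted p = 0.013), a call lost without heat replicate 2, mock replicate 1, the filter on low values or the intensity trend and with median-of-ratios scaling. The abundant LTP1 and the rare LTP3 and LTP4 thus moved in opposite directions.

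Among 22 genes of salicylic acid and defence, 7 rose and 1 fell, at a median log2 change of 0.18 (0.16 to 0.26 over the alternatives), and 10 were higher with length centring. PR5, a thaumatin-like pathogenesis-related protein, had 132 and 137 FPKM after heat recovery and 78.6 and 73.4 FPKM after mock (0.82 ± 0.054, adjusted p = 5.2e-06). PR1, the usual marker of salicylic acid signalling, had 117 and 119 FPKM after heat recovery and 72.2 and 68.3 FPKM after mock (0.74 ± 0.10, adjusted p = 0.00085). PR2, a glucanase, had 297 and 309 FPKM after heat recovery and 209 and 224 FPKM after mock (0.48 ± 0.054, adjusted p = 0.00019). The heat libraries exceeded the mock libraries for all 3 PR genes. WRKY18 rose by 0.79 and the salicylic acid hydroxylase genes DMR6 and AT4G10500 by 0.29 and 0.69. The sole member lower was not called without heat replicate 2 or mock replicate 2.

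Of 31 heat shock proteins, 5 rose and 6 fell 3 days after the heat, against 6.28% and 13.9% of all genes tested. Their median log2 change was -0.094 (-0.15 to 0 over the alternatives), and 20 were not called. The members that rose most were small heat shock proteins, which hold denatured proteins, at low levels. HSP18.2 had 2.39 and 2.49 FPKM after heat recovery and 0.415 and 0.374 FPKM after mock (1.302 ± 0.13, adjusted p = 9.2e-05), and AT1G53540, annotated as HSP20-like, had 2.03 and 1.91 FPKM and 0.113 and 0.0507 FPKM (1.46 ± 0.12, adjusted p = 2.6e-05). Of 4 measured chaperones of the HSP90 family, 3 fell, and HSP90.5, the chloroplast form, had 23.8 and 23.47 FPKM after heat recovery and 39.9 and 36.5 FPKM after mock (-0.67 ± 0.062, adjusted p = 5.7e-05). The cytosolic HSP90.2 and HSP90.3, which share sequence, fell by 0.40 ± 0.058 and 0.39 ± 0.052, and the co-chaperone ROF1 fell by 0.37 ± 0.073. These genes have transcripts of 2310 to 2807 bp. With length centring HSP90.5, HSP90.2, HSP90.3 and ROF1 had -0.49, -0.23, -0.25 and -0.25 and kept their calls. The list summed to 957 and 983 FPKM after heat recovery, against 1069.6 and 1150.5 FPKM after mock. The number higher was 3 without each of the 4 mutant libraries in turn, and the number lower was 3 without heat replicate 2 and 4 with length centring. Of 15 measured heat shock factors, the repressor HSFB2A rose to 8.90 and 8.53 FPKM after heat recovery, against 5.66 and 5.57 FPKM after mock (0.55 ± 0.087, adjusted p = 0.0015), and HSFA8 rose by 0.30, a call lost without mock replicate 2. Chaperones of the endoplasmic reticulum gave 0 calls in limma among 14 members, of which 3 had an unadjusted p below 0.05. ERDJ3B had 38.9 and 36.7 FPKM after heat recovery and 33.9 and 33.1 FPKM after mock (adjusted p = 0.056), and 3 members were higher with median-of-ratios scaling or length centring, 2 with limma-voom on recovered reads and 1 without mock replicate 2 or either wild-type mock library.

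Senescence-associated genes rose in 3 of 17 members and fell in 1, with a median of 0 (-0.03 to 0.028 over the alternatives), which is the value of SAG29, a sugar transporter gene listed at 0 in all 4 mutant libraries. SAG12, a protease and the usual senescence marker, was listed at 0 in all 8 libraries and was not tested. SAG14, a copper-binding protein, had 76.0 and 76.6 FPKM after heat recovery and 47.9 and 49.9 FPKM after mock (0.63 ± 0.057, adjusted p = 4.9e-05). SAG21, a late-embryogenesis-type protein, had 25.8 and 24.3 FPKM after heat recovery and 15.3 and 13.0 FPKM after mock (0.78 ± 0.077, adjusted p = 8.1e-05). SAG13, a dehydrogenase, had 15.5 and 15.3 FPKM after heat recovery and 10.11 and 9.32 FPKM after mock (0.62 ± 0.12, adjusted p = 0.0045). These 3 are also known from oxidative and pathogen responses, and their groups did not overlap. The phospholipase PLDALPHA1 fell by 0.28 ± 0.05, with no call under length centring, where 5 members were higher. Of 26 transcription factors of senescence, 6 rose (3 when mock replicate 2 was left out) and 3 fell, or 1 without heat replicate 2 or with length centring. RAV1, WRKY70, MYB2 and WRKY53 rose by 0.47, 0.42, 0.75 and 0.47, and NAC102 and the auxin response factor ARF2 fell by 0.32 ± 0.065 and 0.34 ± 0.052, the last with no call under length centring. Of 12 measured genes of chlorophyll breakdown, 3 were higher and 2 lower. For this and the other lists of this paragraph, the share of all genes tested was 6.28% higher and 13.9% lower. NYC1, which reduces chlorophyll b in its first breakdown step, had 202 and 199 FPKM after heat recovery and 219.6 and 215 FPKM after mock (-0.12 ± 0.038, adjusted p = 0.047), and the chlorophyllase CLH1 fell by 0.24 ± 0.053. CYP89A9 and MES16, which modify chlorophyll catabolites, rose by 0.27 and 0.33, and AT1G44000, annotated as STAY-GREEN-like, rose to 45.7 and 47.5 FPKM after heat recovery, against 36.3 and 33.4 FPKM after mock (0.41 ± 0.063, adjusted p = 0.0013). NYC1 and MES16 were not called with length centring (adjusted p = 0.35 and 0.064). The higher members numbered 1 without heat replicate 2 or mock replicate 2, and the lower ones 0 without heat replicate 2 or mock replicate 1 and 1 without the other mutant libraries or without either wild-type heat library. Recycling of cell contents gave mixed values: 3 autophagy genes of 16 were higher and 3 lower, among them ATG8E, which coats autophagosomes, at 88.5 and 82.7 FPKM after heat recovery and 60.2 and 54.0 FPKM after mock (0.58 ± 0.066, adjusted p = 0.00022). ATG8G and ATG8F rose by 0.30 and 0.18, and ATG2, NBR1 and ATG9 fell by 0.42 ± 0.089, 0.18 ± 0.039 and 0.24 ± 0.077. ATG8G was not called with length centring (adjusted p = 0.076). No autophagy gene was lower with length centring or without heat replicate 2 or mock replicate 2, and 1 was higher without heat replicate 1, heat replicate 2 or mock replicate 2.

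Nitrogen genes rose in 5 of 20 members and fell in 3, where 6.28% of all genes tested were higher and 13.9% lower. The counts were also 5 and 3 with length centring. NIA1, a nitrate reductase, had 12.1 and 11.3 FPKM after heat recovery and 6.32 and 6.93 FPKM after mock (0.74 ± 0.091, adjusted p = 0.00036). NIR1, the nitrite reductase that acts after it, fell to 74.9 and 70.3 FPKM after heat recovery, against 90.301 and 89.3 FPKM after mock (-0.30 ± 0.045, adjusted p = 0.0011). ASN1, an asparagine synthetase induced in darkness and starvation, fell to 7.10 and 6.26 FPKM after heat recovery, against 12.2 and 10.4 FPKM after mock (-0.68 ± 0.10, adjusted p = 0.00084). Successive enzymes of nitrate assimilation thus moved in opposite directions. The cytosolic glutamine synthetases GLN1;4 and GLN1;1 rose by 0.61 and 0.35.

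Genes of abscisic acid and dehydration fell in 7 of 21 members and rose in 2, with a median of -0.031 (-0.13 to 0.0062 over the alternatives). CYP707A3, which inactivates abscisic acid, rose to 7.75 and 6.04 FPKM after heat recovery, against 2.76 and 2.24 FPKM after mock (1.17 ± 0.14, adjusted p = 0.00025). NCED3, the rate-limiting enzyme of abscisic acid synthesis under drought, fell to 2.16 and 2.304 FPKM after heat recovery, against 3.61 and 3.48 FPKM after mock (-0.49 ± 0.10, adjusted p = 0.0073). AAO3, the last enzyme of the synthesis, fell to 6.44 and 6.75 FPKM after heat recovery, against 10.3 and 10.8 FPKM after mock (-0.61 ± 0.09, adjusted p = 0.001). NCED3 and AAO3 have transcripts of 2730 and 5158 bp and lost their calls with length centring (AAO3 -0.22, adjusted p = 0.092), where 2 members were lower. ABA1, zeaxanthin epoxidase at an early step, rose by 0.22, and the dehydration markers RD22 and KIN2 fell by 0.26 ± 0.04 and 0.30 ± 0.057. Without mock replicate 2, 4 members were lower.

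Of 11 ethylene genes, 3 rose and 4 fell. For these and the auxin and cytokinin lists below, the share of all genes tested was 6.28% higher and 13.9% lower. ACS6, a stress-induced enzyme that makes the ethylene precursor, had 25.6 and 26.48 FPKM after heat recovery and 11.3 and 11.4 FPKM after mock (1.13 ± 0.074, adjusted p = 4.7e-06), and EFE, an oxidase gene of the last step of the synthesis, rose by 0.27. EBF1 and EBF2, F-box proteins that remove the ethylene transcription factor EIN3, fell to 41.0 and 40.3 FPKM and 10.3 and 10.8 FPKM after heat recovery, against 51.3 and 56.1 FPKM and 16.3 and 14.97 FPKM after mock, changes of -0.39 ± 0.054 and -0.53 ± 0.077 (adjusted p = 0.00069 and 0.00096). EBF1 and EBF2 have transcripts of 3052 and 2929 bp. With length centring their changes shrank to -0.19 and -0.35, and both kept their calls. EIN2, a signal transducer with a transcript of 4851 bp, fell by 0.37 ± 0.083, and its value turned to 0.017 with length centring. The members lower numbered 2 without mock replicate 2 or with length centring. Auxin response genes gave 2 higher of 21 and none lower, the repressor IAA17 at 0.40 and SAUR22 at 0.52, with 5 higher under median-of-ratios scaling, 1 without heat replicate 1 or mock replicate 2 and 0 without heat replicate 2. None of 7 type-A response regulators of cytokinin signalling was called in limma (2 at an unadjusted p below 0.05, 1 in limma-voom), with ARR9 at 10.6 and 8.78 FPKM after heat recovery and 8.14 and 6.75 FPKM after mock (adjusted p = 0.063). Of these regulators, 1 was called without mock replicate 1 and 2 with median-of-ratios scaling.

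Iron homeostasis genes fell in 6 of 16 members, with a median of -0.18 (-0.25 to -0.037 over the alternatives), and the ferritins, which store iron in plastids and bind it away from oxidants, led them. FER1 fell to 58.4 and 56.6 FPKM after heat recovery, against 106 and 103 FPKM after mock (-0.85 ± 0.044, adjusted p = 7.8e-07). FER4 fell to 27.2 and 26.7 FPKM after heat recovery, against 38.7 and 33.6 FPKM after mock (-0.41 ± 0.075, adjusted p = 0.0035), and FER3 fell by 0.34 ± 0.072. All 3 ferritin genes have short transcripts, of 1252 to 1421 bp. The metal transporter YSL1, the reductase FRO3 and the regulator BHLH39 fell by 0.30 ± 0.066, 0.19 ± 0.058 and 0.62 ± 0.20, and 3 members were lower with length centring or without heat replicate 2 or mock replicate 2. With length centring, either other scaling or the filter at 5 FPKM, 2 members were higher, and the median was -0.12 without mock replicate 2. Of 14 enzymes of reactive oxygen metabolism, 6 fell and 1 rose. CSD2, the plastid copper-zinc superoxide dismutase, fell to 39.9 and 39.0 FPKM after heat recovery, against 56.6 and 55.2 FPKM after mock (-0.49 ± 0.059, adjusted p = 0.00028). CSD1, its cytosolic form, and CCS, the chaperone that supplies both with copper, fell by 0.22 ± 0.051 and 0.23 ± 0.055. APX1, the cytosolic ascorbate peroxidase, fell to 289 and 273 FPKM after heat recovery, against 356 and 344 FPKM after mock (-0.32 ± 0.041, adjusted p = 0.0005). CAT2, the catalase of photorespiration, rose to 115 and 126 FPKM after heat recovery, against 88.2 and 93.2 FPKM after mock (0.41 ± 0.058, adjusted p = 0.00089), the opposite of APX1. The oxidase RBOHF fell by 0.68 ± 0.087, or 0.38 with length centring (adjusted p = 0.014). The number lower was 3 without mock replicate 2 or with median-of-ratios scaling.

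Glucosinolate and myrosinase genes fell in 8 of 23 members and rose in 1. MAM3, a chain-elongation enzyme of aliphatic glucosinolates, fell to 30.2 and 29.2 FPKM after heat recovery, against 46.2 and 44.5 FPKM after mock (-0.59 ± 0.053, adjusted p = 4.5e-05). MYB34, a regulator of indole glucosinolates, fell to 9.74 and 7.71 FPKM after heat recovery, against 13.1 and 12.8 FPKM after mock (-0.53 ± 0.10, adjusted p = 0.0038). FMOGSOX1, MYB28, MAM1 and the myrosinase TGG1 fell by 0.30 ± 0.053, 0.21 ± 0.049, 0.15 ± 0.038 and 0.23 ± 0.049. The number lower was 5 with length centring or without heat replicate 2 and 3 without heat replicate 1, without the intensity trend or with median-of-ratios scaling, and the single rise was not called without heat replicate 1, mock replicate 1 or mock replicate 2. Starch and raffinose genes fell in 4 of 12 members and rose in 2. GOLS1, a galactinol synthase that begins raffinose synthesis and a known heat shock factor target, rose to 11.7 and 10.3 FPKM after heat recovery, against 5.59 and 6.10 FPKM after mock (0.81 ± 0.086, adjusted p = 0.00013), while GOLS2 and GOLS3 fell by 0.26 ± 0.074 and 0.50 ± 0.12. The starch enzymes SEX1 and DPE2 fell by 0.27 ± 0.083 and 0.15 ± 0.047, with transcripts of 5040 and 3409 bp and values of 0.11 and 0.064 with length centring. The number lower in this list was 0 without heat replicate 1 or mock replicate 2, 1 without heat replicate 2 and 2 without either wild-type heat library, and the number higher was 1 without each of the 4 mutant libraries and each wild-type heat library in turn. Of 10 measured anthocyanin and flavonoid genes, MYBL2, a repressor of the pathway, rose by 0.24 and TT4, chalcone synthase, had 0.968 and 1.498 FPKM after heat recovery and 0.338 and 0.563 FPKM after mock (0.62 ± 0.14, adjusted p = 0.0095), with neither called without heat replicate 2 or mock replicate 1 and MYBL2 also not without the intensity trend.

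Outside the lists, the named genes that fell most were of 2 kinds by length. Some have transcripts of ordinary length. MIOX1, a myo-inositol oxygenase, fell to 5.20 and 4.78 FPKM after heat recovery, against 9.40 and 10.4 FPKM after mock (-0.86 ± 0.091, adjusted p = 0.00014). PYK10, the main beta-glucosidase of endoplasmic reticulum bodies, fell to 14.3 and 13.1 FPKM after heat recovery, against 23.9 and 24.5 FPKM after mock (-0.78 ± 0.072, adjusted p = 5.5e-05). HTA4, a histone H2A, fell to 33.1 and 29.9 FPKM after heat recovery, against 56.9 and 49.8 FPKM after mock (-0.74 ± 0.076, adjusted p = 9.9e-05). These genes too were chosen for groups that do not overlap. The acyltransferase AACT1, the factors MYB47, MEE3 and SPL4, and the glycerol-3-phosphate permease G3Pp4 fell by 0.84 ± 0.14, 0.82 ± 0.11, 0.77 ± 0.13, 0.70 ± 0.12 and 0.74 ± 0.10. Others have very long transcripts. UPL2, a HECT-type ubiquitin ligase with a transcript of 11639 bp, fell to 13.6 and 13.8 FPKM after heat recovery, against 20.5 and 26.9 FPKM after mock (-0.73 ± 0.15, adjusted p = 0.0052), and by 0.35 with length centring (adjusted p = 0.036). BIG, a calossin-like protein of auxin transport with 15700 bp, fell to 9.20 and 10.2 FPKM after heat recovery, against 13.4 and 20.3 FPKM after mock (-0.72 ± 0.21, adjusted p = 0.031), and had -0.33 with length centring (adjusted p = 0.2). For both, mock replicate 2 was the highest library, and the calls of both were lost without it. ILA, RKP, SAR1 and EMB3012, with transcripts of 4756 to 8503 bp, fell by 0.75 ± 0.11, 0.72 ± 0.079, 0.76 ± 0.093 and 0.79 ± 0.13, and by 0.36, 0.33, 0.38 and 0.41 with length centring. The proton pump gene HA11 fell by 0.80 ± 0.069, or 0.59 with length centring.

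Of the other cell types that a leaf sample holds, the epidermal markers ATML1, FDH and CER5 fell, with ATML1 at 12.8 and 12.01 FPKM after heat recovery and 17.63 and 18.1 FPKM after mock, and CER1 rose, among 5 measured of 6. Of all genes tested, 6.28% were higher and 13.9% lower. ATML1, FDH, CER5 and CER1 had log2 changes of -0.50, -0.25, -0.30 and 0.40 in the mutant. In the wild type they had -0.89, -0.34, -0.45 and 0.29, with CER1 not called there. None of the 5 measured guard cell markers was called, and of 7 vascular markers SWEET12, a sucrose exporter, rose to 138 and 143 FPKM after heat recovery, against 124 and 124 FPKM after mock. The epidermal list summed to 275 and 268 FPKM after heat recovery, against 306 and 298 FPKM after mock, and the vascular list to 641 and 667 FPKM, against 626 and 637 FPKM. Their part in the other results was not tested.

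Whether the mutant responded differently from the wild type was tested as an interaction, the mutant change minus the wild-type change. It passed for 5371 genes (31.9% of those tested), 1732 (10.3%) with the mutant change above the wild-type one and 3639 (21.6%) below. The transcript-length trend given above differs between the genotypes and enters this test, and with length centring 2226 genes were above and 2218 below. In the lists, the interaction passed the test with a positive sign for 30 of 32 photosystem genes, 19 of 20 antenna genes, 12 of 16 rapid stress genes and 18 of 21 auxin response genes. It passed with a negative sign for 27 of 31 heat shock proteins, 15 of 22 salicylic acid genes, 14 of 17 senescence-associated genes, 10 of 14 chaperones of the endoplasmic reticulum and 7 of 7 genes of the ERF branch.

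Among genes called in both tests, 415 were higher in the mutant with a positive interaction, and 212 of these were called lower after heat in the wild type, where 16.9% of the genes tested were. The definition of the class favours such genes, since it asks for a wild-type change below that of the mutant. TCH4 had 9.72 and 11.6 FPKM after heat recovery and 49.3 and 46.4 FPKM after mock in the wild type, a log2 change of -2.07 where the mutant rose by 1.18. PHI-1, which had 13.9 and 11.7 FPKM and 2.95 and 3.68 FPKM in the mutant, had 2.504 and 2.99 FPKM after heat recovery and 14.9 and 14.4 FPKM after mock in the wild type. DIC2 had 75.4 and 67.0 FPKM after heat recovery and 38.9 and 37.999 FPKM after mock in the mutant, and 9.90 and 8.81 FPKM and 21.4 and 23.9 FPKM in the wild type. In these genes the mutant after heat stood above its mock and the wild type after heat below its own. TCH2 and DREB26 had the same pattern, with mutant and wild-type changes of 0.71 and -1.19, and of 1.23 and -1.42. LHCB2.3 rose by 0.70 in the mutant and changed by -0.32 in the wild type, where it had 225 and 214 FPKM after heat recovery and 285 and 266 FPKM after mock.

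A negative interaction with a rise in the mutant was found for 254 genes. The definition of this class admits only genes that rose by more in the wild type. NIT2, a nitrilase, had 1.31 and 1.24 FPKM after heat recovery and 0.684 and 0.535 FPKM after mock in the mutant, and 177 and 216 FPKM and 0.338 and 0.287 FPKM in the wild type. PRXCB, a cell wall peroxidase, had 127 and 127 FPKM after heat recovery and 111 and 116 FPKM after mock in the mutant, and 1153 and 1147 FPKM and 99.8 and 107 FPKM in the wild type. EARLI1 rose by 1.73 in the mutant and by 5.94 in the wild type. For each, the heat libraries of the mutant lay far below those of the wild type. TI1, JRG21, an oxygenase-like jasmonate-regulated gene, and CHI, a chitinase family gene, rose by 1.32, 0.31 and 0.59 in the mutant and by 5.38, 4.70 and 3.67 in the wild type. JRG21 was called in the mutant in 10 of 18 alternatives, and the mutant calls of PRXCB and NIT2 were lost in 5 and 3 of them.

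A fall in the mutant with a positive interaction was found for 142 genes, a class that by definition admits only genes that fell by more in the wild type. TGG1, a myrosinase, had 724 and 762 FPKM after heat recovery and 871 and 870.4 FPKM after mock in the mutant, and 405 and 365 FPKM and 1048 and 1051 FPKM in the wild type. KIN2, a cold- and abscisic acid-induced gene, had 479 and 496 FPKM after heat recovery and 620.0 and 582 FPKM after mock in the mutant, and 452 and 485 FPKM and 1155 and 1028 FPKM in the wild type. The genotypes lay further apart after heat than after mock in TGG1, and further apart after mock than after heat in KIN2. XTH6, MIPS1, an inositol phosphate synthase, FLA8, a fasciclin-like arabinogalactan protein, and the fatty acid desaturase FAD3 changed by -0.25, -0.30, -0.27 and -0.19 in the mutant and by -1.79, -1.34, -1.23 and -0.99 in the wild type, and FAD3 was not called in the mutant with length centring (adjusted p = 0.055). The mutant calls of XTH6 and FAD3 were each lost in 7 of 18 alternatives, and that of TGG1 in 3. Those of MIPS1 and FLA8 were each lost in 1, and KIN2 kept its call in all 18.

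The last class, lower in the mutant with a negative interaction, held 1087 genes, and 275 of them were called higher after heat in the wild type, where 21.5% of the genes tested were, in a class whose definition favours such genes. BGLU18 stood at 236 and 242 FPKM after heat recovery and 168 and 176 FPKM after mock in the wild type, a log2 change of 0.47, where the mutant had a change of -1.05. AOX1D, an alternative oxidase of mitochondria, had 1.25 and 1.04 FPKM after heat recovery and 1.87 and 1.98 FPKM after mock in the mutant, and 11.4 and 10.7 FPKM and 0.446 and 0.419 FPKM in the wild type. MAM3 had 30.2 and 29.2 FPKM after heat recovery and 46.2 and 44.5 FPKM after mock in the mutant, and 42.4 and 44.0 FPKM and 27.7 and 28.5 FPKM in the wild type. The genotypes therefore had opposite signs in these 3 genes. CORI3, YLS9, a pathogen- and age-induced gene, and TPS04, the geranyllinalool synthase, changed by -0.49, -0.43 and -0.45 in the mutant and by 0.90, 3.01 and 2.13 in the wild type. YLS9 was called in the mutant in 8 of 18 alternatives, and TPS04 was not called with length centring (adjusted p = 0.15). The mutant calls of TPS04 and AOX1D were lost in 4 and 3 of the 18.

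**Figure D4:**
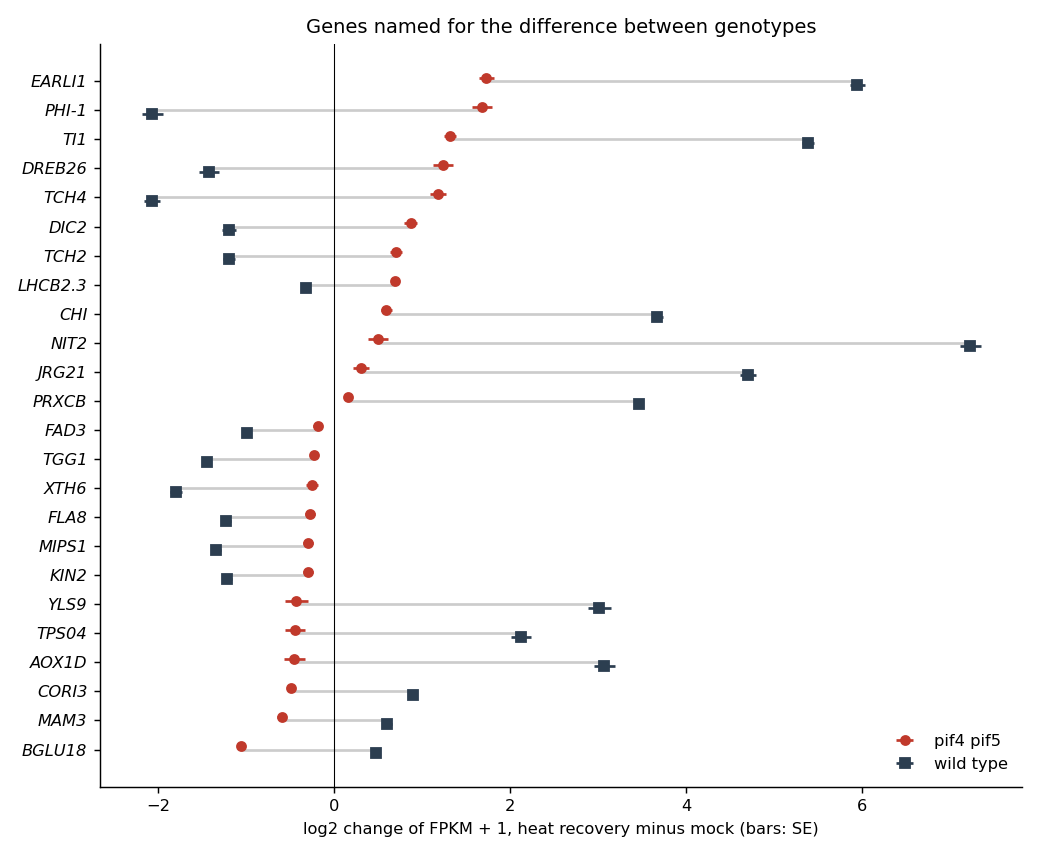
Log2 change of FPKM + 1 (heat recovery minus mock) with its SE for the 24 genes named for the interaction, in pif4 pif5 (red circles) and wild type (dark squares), joined by a grey line. NIT2 rises by 0.50 in the mutant and by 7.22 in the wild type, and TCH4 and PHI-1 rise in the mutant and fall in the wild type.

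**Figure D5:**
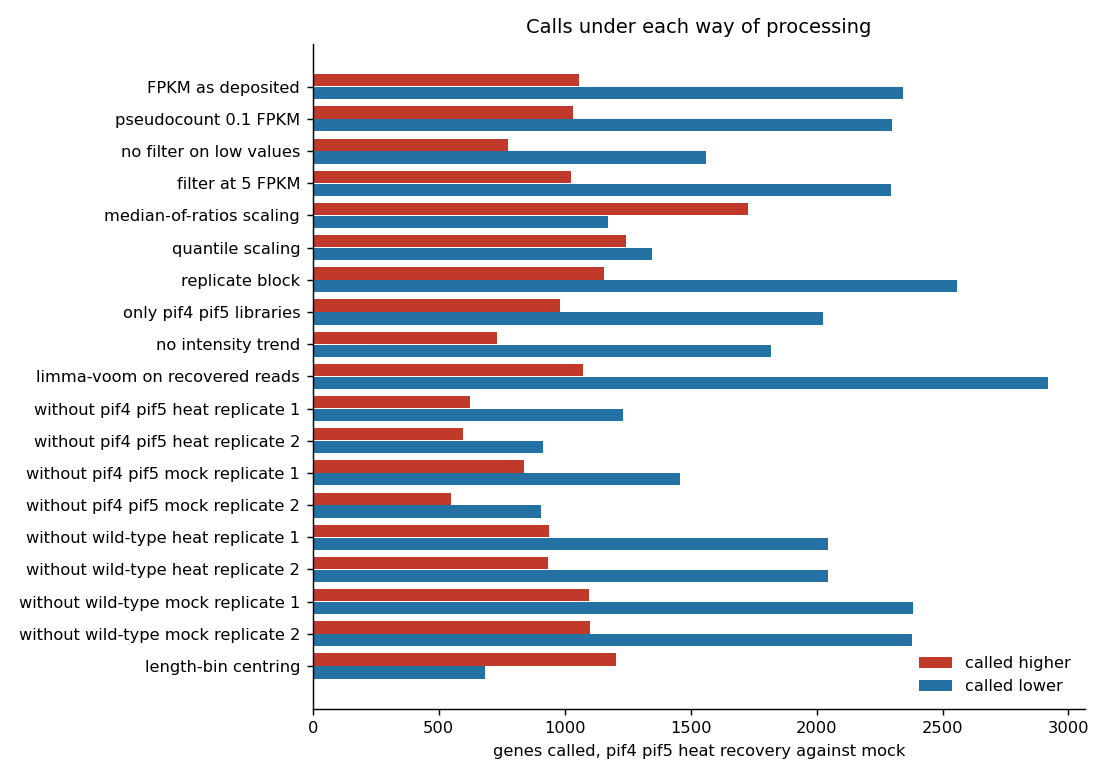
Numbers of genes called higher (red) and lower (blue) after heat recovery in pif4 pif5 under each way of processing, at an adjusted p below 0.05. Lower calls exceed higher ones in the deposited values (2344 and 1057) and the order turns with median-of-ratios scaling and length-bin centring.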

How the data were processed

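RNA extracted with Trizol went through DNase digestion and a directional library kit, as the labels' protocols say. The authors deposited FPKM values for 34354 genes in 8 libraries. TopHat, TopHat2 and the TAIR10 build are named without versions or roles, and edgeR without a version, per the submitters' processing notes. The sources used here name no annotation, counting step or strand setting, and antisense and overlapping genes cannot be told apart. Of the rows, 32548 matched a locus in the RefSeq TAIR10.1 annotation, which supplied symbols, transcript lengths and promoters. Whole reads were recovered to within 0.02 of a read from the FPKM steps for 16831 of 16831 tested genes, a search that can fit low genes by chance. An annotated length gave those steps for 13181 of the 23223 rows above 0 with one. Depths were inferred first, as the library size that most often turned low FPKM values into small whole reads at annotated lengths. The whole reads were then derived from these depths, which are not sums of them.

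Genes that reached 1 FPKM in 2 or more of the 8 libraries were tested on log2(FPKM + 1) with limma 3.58.1 in R 4.3.3, with 4 group means over all libraries (4 residual degrees of freedom), an intensity trend and two-sided p-values adjusted by Benjamini-Hochberg over all 16831 genes, called below 0.05. Fold changes on this scale understate those of low genes. Errors of changes are SE. The script was tested on simulated data with known changes, drawn with the same biological spread for every gene and no trend over transcript length. That test says nothing about calls under such a trend. The gene lists (32, with 573 genes, 527 of them measured) and 9 marker lists, and the comparison itself, were chosen with earlier results of these data known. Named are PIF4 and PIF5, up to 6 called genes with the smallest p per list (2 as values where none was called), 15 genes with the largest change each way outside the lists whose higher group averaged 5 FPKM or more and did not overlap the other, and 6 genes for each of 4 interaction classes. LHCA4 and the marker genes were named in addition, for the promoters and cell types. There were 18 alternatives: other pseudocount, filters, scalings, replicate block, fits and libraries left out in turn. Where 1 library was left out, the lone one was assumed to vary like the other groups. Within a group, libraries differed by more than sampling noise (mean chi-square per gene 2.14 after heat and 5.12 after mock in the mutant). P-values measure the spread between these samples, pooled over all 4 groups. For each gene this spread was drawn towards that of genes at a similar level (median prior degrees of freedom 7.85).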

Additional observations from a re-analysis of the deposited data

Results flagged for a closer look

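The heat effect in pif4 pif5 differed from that in the wild type for 5371 genes by the interaction test in limma. The 24 genes named for it follow with their interaction, the mutant change minus the wild-type change on the log2 scale. They were chosen for the smallest interaction p in these same libraries. That each kept its call in the 17 alternatives that test it follows largely from this choice and is no separate support. Rising in the mutant above the wild type, TCH4 had 3.25 ± 0.13 (adjusted p = 1.1e-08), PHI-1 3.74 ± 0.17 (adjusted p = 1.9e-08), TCH2 1.90, DIC2 2.06, DREB26 2.65 and LHCB2.3 1.02. Rising in the mutant below the wild type, PRXCB had -3.30 ± 0.061 (adjusted p = 2.7e-11), TI1 -4.06, NIT2 -6.72 ± 0.16 (adjusted p = 2.2e-10), EARLI1 -4.21, JRG21 -4.39 and CHI -3.08. Falling in the mutant by less than in the wild type, TGG1 had 1.22 ± 0.069 (adjusted p = 1.6e-07), XTH6 1.54, MIPS1 1.05, FLA8 0.96, FAD3 0.80 and KIN2 0.92. Falling in the mutant against a rise in the wild type, BGLU18 had -1.52 ± 0.062 (adjusted p = 1.1e-08), CORI3 -1.39, AOX1D -3.52, YLS9 -3.44, TPS04 -2.57 and MAM3 -1.20. Groups of 2 libraries are too small to test a single library against its group.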

How the results depend on the processing

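The larger number of lower than higher calls in pif4 pif5 depended on the scaling. Median-of-ratios scaling gave 1729 higher and 1173 lower genes, quantile scaling 1348 lower, and length-bin centring, added after seeing the data, 1888 called with 685 lower. Without the filter on low values 1561 were lower. With 0.1 FPKM as the pseudocount, 112 genes were at least 2-fold higher and 58 lower; limma-voom on recovered reads gave 123 and 57 and called 1071 higher and 2920 lower in all; at least 2-fold lower were 13 without the filter and 9 with a filter at 5 FPKM. Leaving out 1 library gave 1453 to 3478 genes called, 547 to 1100 higher, 906 to 2381 lower, 43 to 65 at least 2-fold higher and 13 to 29 at least 2-fold lower. Negative interactions numbered 2248 with quantile scaling and 2218 with length-bin centring, and 2627 to 3561 without 1 library. The replicate block gave 1157 higher and 2556 lower genes. The shared numbers do not pair the mutant libraries, as the deviations of equal numbers correlated at 0.089 between heat and mock. Length-bin centring turned the sign of EIN2 (0.017), SEX1 (0.11), DPE2 (0.064), ATG9 (0.0066) and TOC1 (0.011), by removing the median change of genes of like length. Of 187 named calls in the mutant, 116 held in all alternatives and 71 were lost in at least 1. All 24 named interactions held in the 17 that test them, which their choice by smallest p favours. With 2 libraries a group and these depths, changes of genes near 1 FPKM are poorly measured.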
